A study of Mus musculus with 50 samples.

Results

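Mammalian mitochondria carry their own ribosomes, which translate the few membrane proteins of the respiratory chain that mitochondrial DNA encodes. The ribosomal RNAs of these particles come from mitochondrial DNA, whereas every one of their proteins is encoded in the nucleus, made in the cytosol and imported. The genes are named Mrpl for the large subunit and Mrps for the small subunit. Many of the proteins descend from bacterial ribosomal proteins, and others occur only in mitochondria. The heart is rich in mitochondria, and human variants in several of these genes cause cardiomyopathy with a combined loss of respiratory chain enzymes.

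The genes described here were those whose symbol begins with Mrpl or Mrps followed by a digit, without the pseudogene ending -ps, and with at least 1 FPKM (a read level scaled to exon length and library depth) in at least 5 libraries. All 78 such genes in the table passed, of 35717 genes in all and 11628 genes that passed the same level, and each of the 78 reached 1 FPKM in all 50 libraries. A further 5 symbols with the pseudogene ending were left out. The set held 49 Mrpl and 29 Mrps genes on 17 chromosomes, with 11 of them on chromosome 11. By known place, 51 encode large subunit proteins and 26 small subunit proteins. Mrps30 and Mrps18a count among the 51, since their products sit in the large subunit in spite of their names. Mrps36 stood apart, because its product is also known as a subunit of the oxoglutarate dehydrogenase complex. Of the 78, 45 have a bacterial counterpart and 29 are specific to mitochondria.

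The libraries were poly(A) RNA sequencing of the left ventricle of mice 40 weeks old on a C57BL/6J background, taken after 21 days of infusion by pump. The groups were LARP6 transgenic mice given angiotensin II at 1000 ng/kg/min (Tg Ang II, 13 libraries, 7 female and 6 male), transgenic mice given saline (Tg saline, 12 libraries, 6 and 6), wild-type littermates given angiotensin II (WT Ang II, 14 libraries, 7 and 7) and wild-type littermates given saline (WT saline, 11 libraries, 5 female and 6 male). LARP6 is an RNA-binding protein known for binding collagen mRNAs, and angiotensin II is a hormone that raises blood pressure and loads the heart. The series title places the overexpression in cardiomyocytes; the promoter and the number of transgenic lines are not given in the sources used here. The titles give each library a number of its own and do not say that each came from a separate animal, so p-values measure the spread between these libraries.

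Total counts ranged over the 50 libraries between 53877439 and 91579342, and genes of the mitochondrial genome took 28.1% to 38.8% of them. Larp6, at 442.5 to 1627 scaled FPKM in Tg libraries against 5.595 to 63.53 scaled FPKM in WT libraries, matched the label in 49 libraries. The exception was library 329, labelled WT Ang II male, at 1001, and its column in the deposited table also carries the letters of the transgene. It was kept in the group of its label, and several results that rest on it are also given without it. Library 847, labelled Tg Ang II, had wild-type letters in its column name and 1117 scaled FPKM of Larp6, a level of the Tg libraries. Scaled FPKM are the deposited FPKM divided by 1 factor per library, which sets the typical gene equal between libraries.

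The promoters of 4 members are shown here because they belong to genes that the comparisons below turn on and because they hold motifs of factors known to drive nuclear genes for mitochondria. Each is 250 bases before to 50 after the annotated start in RefSeq (mouse build GRCm38.p6), 5′ to 3′ on the gene's strand, with motif matches in capitals. Mrpl42 (chr10:95501900-95502199, minus strand) and Mrpl37 (chr4:107066817-107067116, minus strand) hold AAGATGGC, the core motif of YY1, just after the start. Mrpl45 (chr11:97315466-97315765, plus strand) holds the motif of NRF1 (GCGC and TGCGC with any 1 base between) at 3 places, and Mrpl33 (chr5:31613701-31614000, plus strand) holds CCGGAAG, the motif of ETS factors such as GABP, at its start. In Mrpl45, GCGCGTGCGC reads that way, and GCGCAGGCGC and GCGCACGCGC are matches on the opposite strand. The 4 were picked for holding a motif and do not stand for the members called lower in both Tg against WT comparisons below. Of 22 such members with a promoter, 2 (9.09%) held the YY1 motif, 3 (13.6%) ETS and 6 (27.3%) NRF1. Of the other 47, 10 (21.3%), 23 (48.9%) and 7 (14.9%) did.
Mrpl42: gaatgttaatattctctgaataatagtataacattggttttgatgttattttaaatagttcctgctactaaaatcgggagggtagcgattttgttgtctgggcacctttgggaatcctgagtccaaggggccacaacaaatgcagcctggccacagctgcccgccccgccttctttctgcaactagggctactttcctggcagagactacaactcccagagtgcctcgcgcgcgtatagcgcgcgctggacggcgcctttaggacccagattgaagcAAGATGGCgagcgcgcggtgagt
Mrpl37: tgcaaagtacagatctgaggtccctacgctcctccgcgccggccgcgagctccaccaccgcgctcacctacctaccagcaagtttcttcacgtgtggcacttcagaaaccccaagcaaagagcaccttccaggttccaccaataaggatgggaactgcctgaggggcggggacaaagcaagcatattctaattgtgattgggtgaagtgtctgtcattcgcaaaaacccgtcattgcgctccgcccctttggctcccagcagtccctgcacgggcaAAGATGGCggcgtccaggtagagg
Mrpl45: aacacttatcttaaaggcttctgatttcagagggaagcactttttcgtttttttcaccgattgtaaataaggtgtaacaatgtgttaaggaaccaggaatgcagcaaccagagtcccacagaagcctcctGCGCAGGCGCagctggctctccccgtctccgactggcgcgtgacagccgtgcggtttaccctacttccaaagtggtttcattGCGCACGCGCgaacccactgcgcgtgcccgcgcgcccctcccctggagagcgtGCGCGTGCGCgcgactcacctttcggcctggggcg
Mrpl33: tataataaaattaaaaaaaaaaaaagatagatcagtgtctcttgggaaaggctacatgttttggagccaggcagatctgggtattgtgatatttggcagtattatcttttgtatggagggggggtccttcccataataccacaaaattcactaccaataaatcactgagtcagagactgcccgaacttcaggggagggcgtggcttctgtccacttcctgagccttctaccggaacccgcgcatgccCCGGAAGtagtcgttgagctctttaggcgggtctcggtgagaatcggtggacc

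RefSeq promoters were matched for 69 of the 78 members, and the motifs were searched on both strands of all their windows. The NRF1 motif occurred in 13 of the 69 members (18.8%), against 11.9% of the tested genes and 5.19% of all genes with a promoter. The ETS motif occurred in 26 members (37.7%), against 20.7% of tested genes and 9.93% of all genes. The YY1 motif occurred in 12 members (17.4%), against 5.58% of tested genes and 3.19% of all genes. The NRF1 motif can match itself on the opposite strand over the same bases. A match describes letters in the window and is no evidence of binding. Mrpl37 starts 120 bases from the start of Cyb5rl on the other strand, and such a head-to-head start within 1000 bases (or up to 200 bases of overlap) of another protein-coding gene was found for 23 of the 78 members (29.5%), against 1269 of 10343 tested protein-coding genes (12.3%).

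Levels between members spanned more than an order of magnitude. Mrps23, a small subunit protein specific to mitochondria, had the highest mean level at 62.77 scaled FPKM. Mrpl12, which forms the stalk that recruits translation factors, averaged 46.07 scaled FPKM, and Mrpl18, of the central protuberance, 43.24. The lowest means were those of Mrps10 (1.665 scaled FPKM), a protein of the small subunit head, Mrpl57 (2.518 scaled FPKM), specific to mitochondria, and Mrpl17 (2.982 scaled FPKM), of the large subunit. The deposited FPKM divide by all exon bases of a gene, and several members have annotated exons that their main mRNA lacks. Per base of the main coding mRNA, with all reads of a gene assigned to that mRNA, the order changed. Reads on other exons raise this value, so it is an upper bound where many exon bases lie outside the main mRNA. Mrpl42 has 3682 exon bases against 666 in its main mRNA, and Mrpl33 7326 against 478. Mrpl42 then led with 165.7, ahead of Mrps23 (73.52), Mrpl30 (64.87) and Mrpl33 (54.24), and Mrps10 stood at 13.21. The lowest on that scale were Mrpl57 (2.587), Mrps26 (3.076) and Mrpl17 (3.107). The main mRNAs were short, with a median of 1302 bases and a range of 418 to 7300, against a median of 2709 bases over the tested genes. Mean counts per member ranged over the 50 libraries between 324 for Mrpl52 and 8300, with a median of 1840.

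The members varied little between libraries of a group. Within the 4 groups of genotype and treatment, the standard deviation of log2 level had a median of 0.135 over the 78 members. It was lowest for Mrpl10 (0.085) and highest for Mrpl52 (0.36). After removal of the group means, the median correlation over all 3003 pairs of members was 0.376 over the 50 libraries, and 0.31 without library 965. All pairs come from the same libraries and share their depth and scaling, and the correlation is given as a description.

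Averaged over the 78 members, Tg libraries lay below WT libraries. The mean log2 deviation from each gene's mean over 50 libraries had a median of -0.0557 in Tg Ang II libraries (range -0.154 to 0.0734) and -0.0437 in Tg saline libraries (range -0.218 to 0.327). It had a median of 0.0459 in WT Ang II libraries (range -0.084 to 0.212) and 0.0561 in WT saline libraries (range -0.0975 to 0.141). All groups overlapped, and library 965, a Tg saline male, stood far above its group.

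**Figure D1:**
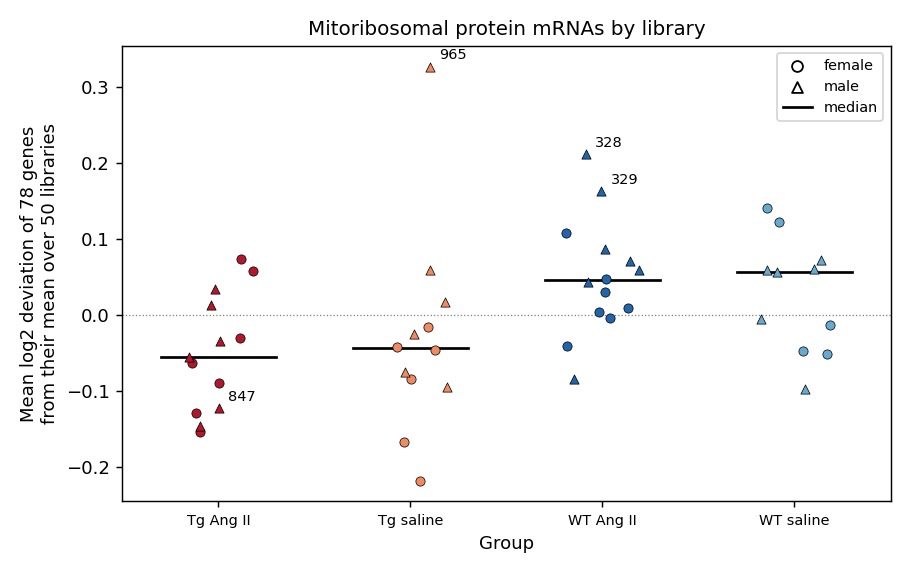
Mean log2 deviation of the 78 mRNAs from their means over 50 libraries (y axis) for each library (points) by group (x axis), with group medians as lines. The medians are -0.0557 and -0.0437 in the Tg groups and 0.0459 and 0.0561 in the WT groups, and library 965 lies at 0.327.

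Library 965 had the highest level of the 50 libraries for 35 of the 78 members, and the next library in this respect, 968, for 17. It lay above the mean for 62 members and below it for 16, with a median deviation of 0.266 on the log2 scale. The deviation was on average larger for short mRNAs, with exceptions. Mrpl52, with the shortest main mRNA of the set, stood 1.71 above its mean, Mrps21 1.23, Mrps33 1.22 and Mrpl54 1.08, whereas Mrps30 stood 0.318 below its mean (-0.318). Mrpl34, with a short mRNA of 607 bases, lay below its mean (-0.162), and Mrps16, with 2572 bases, above it (1.01). The 26 members with the shortest mRNAs had a median deviation of 0.478 in library 965 and the 26 with the longest 0.196. Over all tested genes, the log2 level in library 965 fell by 0.148 per doubling of mRNA length, and the value was between -0.0794 (library 328) and 0.05 in the other 49 libraries. The cytosolic ribosomal proteins, also encoded by short mRNAs, lay 0.863 above their mean in library 965. The library also had the fewest genes at 1 FPKM, by a narrow margin (9832, against 9941 to 11109 elsewhere). The part of RNA quality or of the library preparation in this was not tested. The main counts for Tg saline are therefore given with and without library 965. Many single genes and most gene lists are given only with it.

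**Figure D2:**
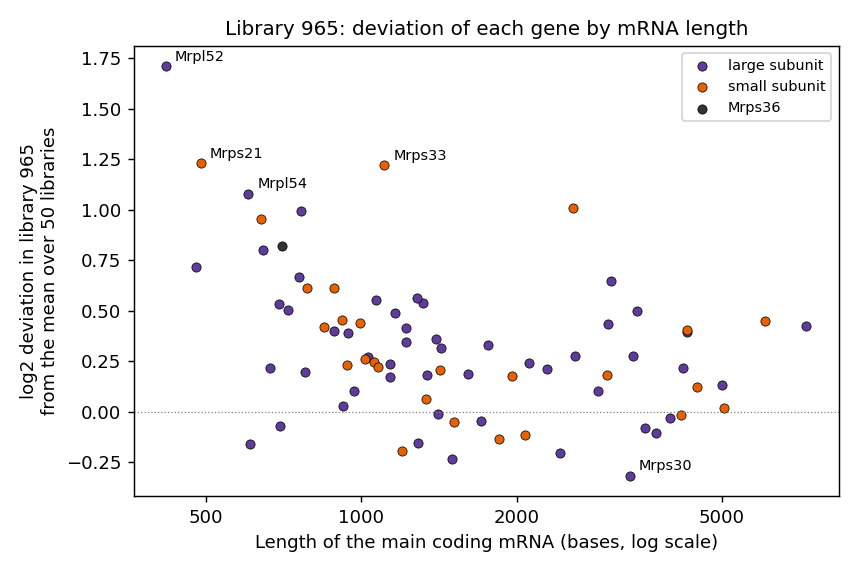
Log2 deviation of each of the 78 mRNAs in library 965 from its mean over 50 libraries (y axis) against the length of its main coding mRNA (x axis, log scale). Mrpl52 lies highest at 1.71 and Mrps30 lowest at -0.318; the 26 shortest mRNAs have a median of 0.478 and the 26 longest 0.196, with wide scatter: Mrpl34 is short and at -0.162, Mrps16 long and at 1.01.

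The first comparison set Tg saline against WT saline mice, which addresses the transgene without infusion. In Tg saline hearts, 29 of the 78 members fell and 7 rose at an adjusted p under 0.05 in edgeR's quasi-likelihood test across all tested genes. The background was wide: 20.2% of all tested genes fell and 20.4% rose in this comparison. Of the members, 37.2% fell and 8.97% rose. The median log2 fold change of the members was -0.0473, with 52 of them below 0, against a median of 0.000437 over all tested genes. Without library 965, 28 members fell and 4 rose, with a median of -0.0894, and the background was 19.4% and 18.8%. The 29 that fell had log2 fold changes between -0.44 (Mrpl42) and -0.12 (Mrps17).

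The 3 members with the smallest adjusted p among those that fell in Tg saline hearts encode proteins specific to mitochondria. Mrpl37, a large subunit protein, had a lowest, median and highest level of 8.362, 9.555 and 10.7 scaled FPKM in Tg saline hearts, against 11.12, 11.65 and 13.28 scaled FPKM in WT saline hearts. All 12 Tg saline libraries lay below the lowest WT saline library, and the log2 fold change was -0.32 ± 0.04 (SE; edgeR adjusted p = 9.32e-09). Mrps35, of the small subunit, had 3.484, 4.346 and 4.978 scaled FPKM in Tg saline hearts, against 4.994, 5.45 and 6.493 scaled FPKM in WT saline hearts. Its groups did not overlap either, by a narrow margin, with a log2 fold change of -0.38 ± 0.06 (SE; edgeR adjusted p = 4.09e-07). Mrpl42, of the large subunit, had 22.03, 24.78 and 34.28 scaled FPKM in Tg saline hearts, against 28.93, 34.38 and 40.69 scaled FPKM in WT saline hearts. The overlap came from library 965 alone, since 11 of 12 Tg saline libraries lay below every WT saline library and the highest without library 965 was 27.23. The log2 fold change was -0.44 ± 0.06 (SE; edgeR adjusted p = 3.79e-07).

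Mrps31, a small subunit protein specific to mitochondria, was lower than every WT saline library in 11 of 12 Tg saline libraries (log2 fold change -0.26, adjusted p = 1.42e-05). Mrpl41, a large subunit protein also specific to mitochondria, was lower than every WT saline library in 10 of 12 (log2 fold change -0.28, adjusted p = 2.95e-05). Mrpl45, which tethers the large subunit to the inner membrane in mammals, had 11.84, 13.48 and 17.12 scaled FPKM in Tg saline hearts, against 15.23, 16.6 and 24.27 scaled FPKM in WT saline hearts. It also lay below every WT saline library in 10 of 12 (log2 fold change -0.30, adjusted p = 3.45e-05).

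Among members with a bacterial counterpart, Mrpl28 had a lowest, median and highest level of 17.79, 22.96 and 38.62 scaled FPKM in Tg saline hearts, against 27.33, 32.24 and 37.47 scaled FPKM in WT saline hearts. Its highest value was again library 965, which lay above every WT saline library, while the highest without it was 28.29. The log2 fold change was -0.42 ± 0.07 (SE; edgeR adjusted p = 8.75e-06), and -0.48 without library 965. Mrps5, of the decoding region of the small subunit, had a log2 fold change of -0.22 (adjusted p = 3.06e-05), with 10 of 12 Tg saline libraries below every WT saline library. Mrpl14, at the face where the subunits join, had a log2 fold change of -0.32 (adjusted p = 0.0017), and -0.40 without library 965.

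The members that rose in Tg saline hearts were fewer and more dependent on library 965. Mrpl33, a very small protein near the exit site of the large subunit, had 2.562, 3.74 and 5.693 scaled FPKM in Tg saline hearts, against 2.263, 2.663 and 3.566 scaled FPKM in WT saline hearts. Its groups overlapped, with 8 of 12 Tg saline libraries above every WT saline library, and the log2 fold change was 0.46 ± 0.10 (SE; edgeR adjusted p = 0.000138), or 0.40 without library 965. Mrpl40, specific to mitochondria, rose by 0.24 on the log2 scale (adjusted p = 0.00172), Mrpl54, also specific to mitochondria, by 0.38 (adjusted p = 0.00221) and Mrpl27, next to the peptidyl transferase centre, by 0.22 (adjusted p = 0.00755). These 3 were called without library 965 as well, at 0.20, 0.27 and 0.16.

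Mrpl52, specific to mitochondria, had 2.264, 3.958 and 12.11 scaled FPKM in Tg saline hearts, against 2.241, 3.19 and 4.052 scaled FPKM in WT saline hearts. The value of 12.11 was that of library 965, and the next highest Tg saline library had 4.456. Its log2 fold change was 0.45 (adjusted p = 0.0184) with library 965 and 0.23 (adjusted p = 0.121) without it. Mrps23 (log2 fold change 0.11, adjusted p = 0.0348) and Mrpl17 (0.11, adjusted p = 0.0395) also missed the threshold without library 965, at adjusted p = 0.0577 and 0.119.

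The same comparison under angiotensin II, Tg Ang II against WT Ang II mice, uses none of the same libraries. Of the 78 members, 30 fell and 1 rose in Tg Ang II hearts, against 16.4% of all tested genes in each direction. Of the members, 38.5% fell and 1.28% rose. The median log2 fold change was -0.106, with 61 members below 0. Without libraries 329 and 847, 26 fell (33.3%) and 2 rose (2.56%) with a median of -0.0973, against 16.7% of all genes lower and 16.6% higher. Of the 29 members that fell under saline, 25 also fell under angiotensin II (86.2% of the first list and 83.3% of the 30). The same overlap over all tested genes was not counted, so these 2 shares have no background to be set against.

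Mrpl28 differed most among these. It had a lowest, median and highest level of 16.48, 20.73 and 24.94 scaled FPKM in Tg Ang II hearts, against 25.34, 30.72 and 40.14 scaled FPKM in WT Ang II hearts. The groups did not overlap, with 13 of 13 Tg libraries below the lowest WT library, and the log2 fold change was -0.56 ± 0.07 (SE; edgeR adjusted p = 1.23e-08). Mrpl42 had 21.22, 26.14 and 31.9 scaled FPKM in Tg Ang II hearts, against 27.16, 34.89 and 39.77 scaled FPKM in WT Ang II hearts. The groups overlapped, with 10 of 13 Tg libraries below every WT library, and the log2 fold change was -0.42 ± 0.06 (SE; edgeR adjusted p = 3.81e-07). Mrpl37 had 8.781, 9.627 and 10.69 scaled FPKM in Tg Ang II hearts, against 10.31, 11.48 and 12.67 scaled FPKM in WT Ang II hearts. There, 9 of 13 Tg libraries lay below every WT library, and all 13 did without library 329 (lowest WT Ang II library then 11.1). The gene had a log2 fold change of -0.24 ± 0.04 (SE; edgeR adjusted p = 6.8e-07).

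Mrpl14 had 11.21, 12.65 and 14.76 scaled FPKM in Tg Ang II hearts, against 13.03, 16.45 and 21.94 scaled FPKM in WT Ang II hearts. The groups overlapped, with 9 of 13 Tg libraries below every WT library (log2 fold change -0.39, adjusted p = 6.34e-05). Mrps35 fell by 0.30 on the log2 scale (adjusted p = 1.26e-05) and Mrpl30, a large subunit protein with a bacterial counterpart, by 0.29 (adjusted p = 0.000108). Mrpl33, with 3.061, 4.033 and 5.066 scaled FPKM in Tg Ang II hearts, against 2.753, 3.259 and 5.164 scaled FPKM in WT Ang II hearts, rose by 0.26 on the log2 scale (adjusted p = 0.0206). The highest WT Ang II value was library 329; without it the highest was 4.106, and 6 of the 13 Tg Ang II libraries lay above that. Without libraries 329 and 847, Mrpl33 rose by 0.31 (adjusted p = 0.00432). Mrpl40 (0.11, adjusted p = 0.153), Mrpl54 (0.10, adjusted p = 0.46), Mrpl27 (0.09, adjusted p = 0.294) and Mrpl52 (-0.08, adjusted p = 0.726), which rose under saline, did not pass under angiotensin II. These 4 fits include library 329, which had the highest WT Ang II value of Mrpl40 (9.795 scaled FPKM). Without it the highest was 8.277, and 6 of the 13 Tg Ang II libraries lay above that. The same count without library 329 was 1 for Mrpl27, and no Tg library did so for Mrpl54 or Mrpl52.

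**Figure D3:**
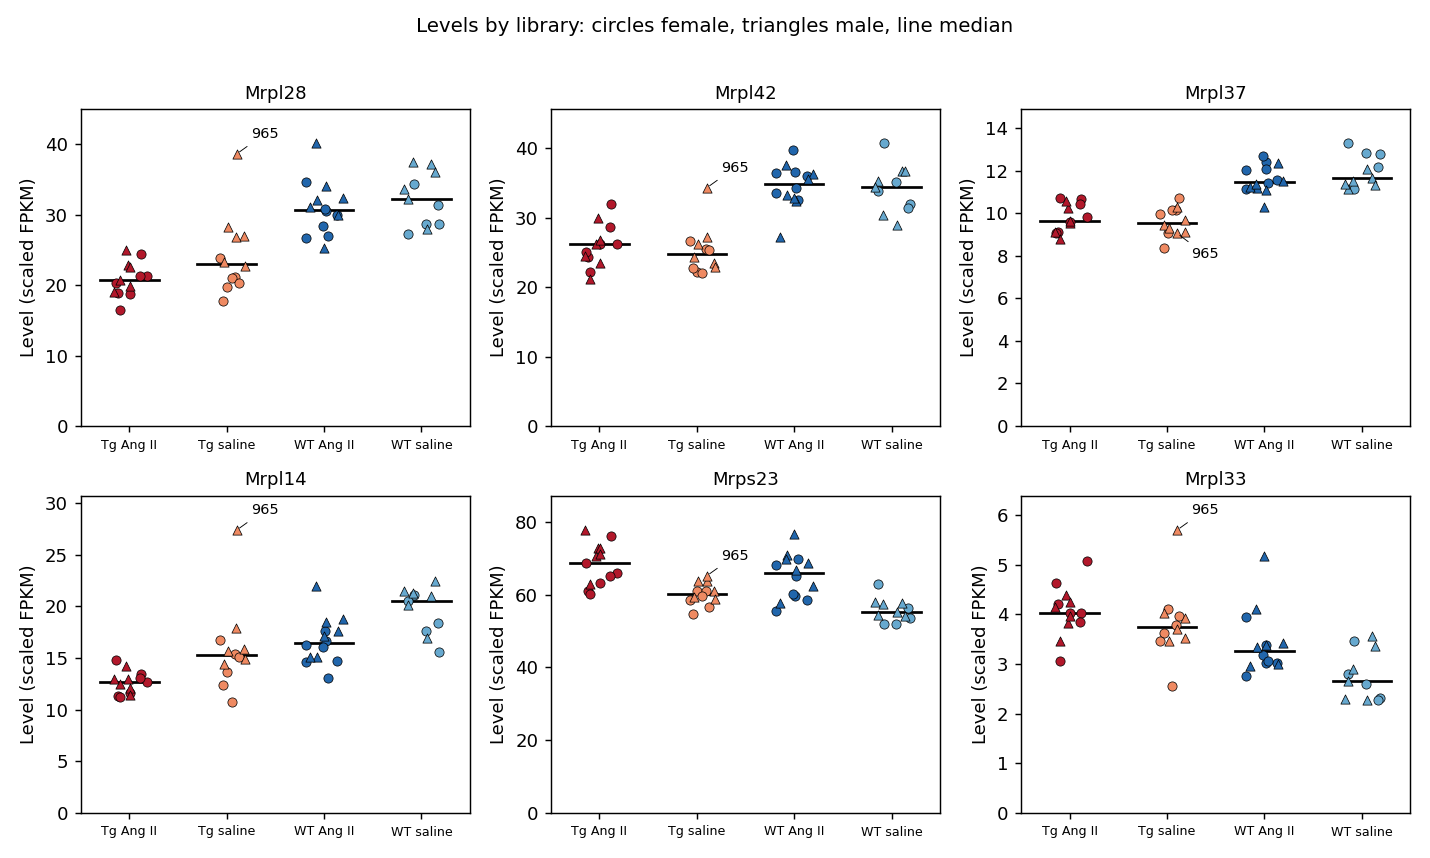
Scaled FPKM (y axis) of 6 members in each library (points; circles female, triangles male) by group (x axis), with medians as lines. Mrpl28 lies between 16.48 and 24.94 in Tg Ang II hearts, all below the WT Ang II libraries, and library 965 is the highest Tg saline value of 5 of the 6 genes.

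**Figure D4:**
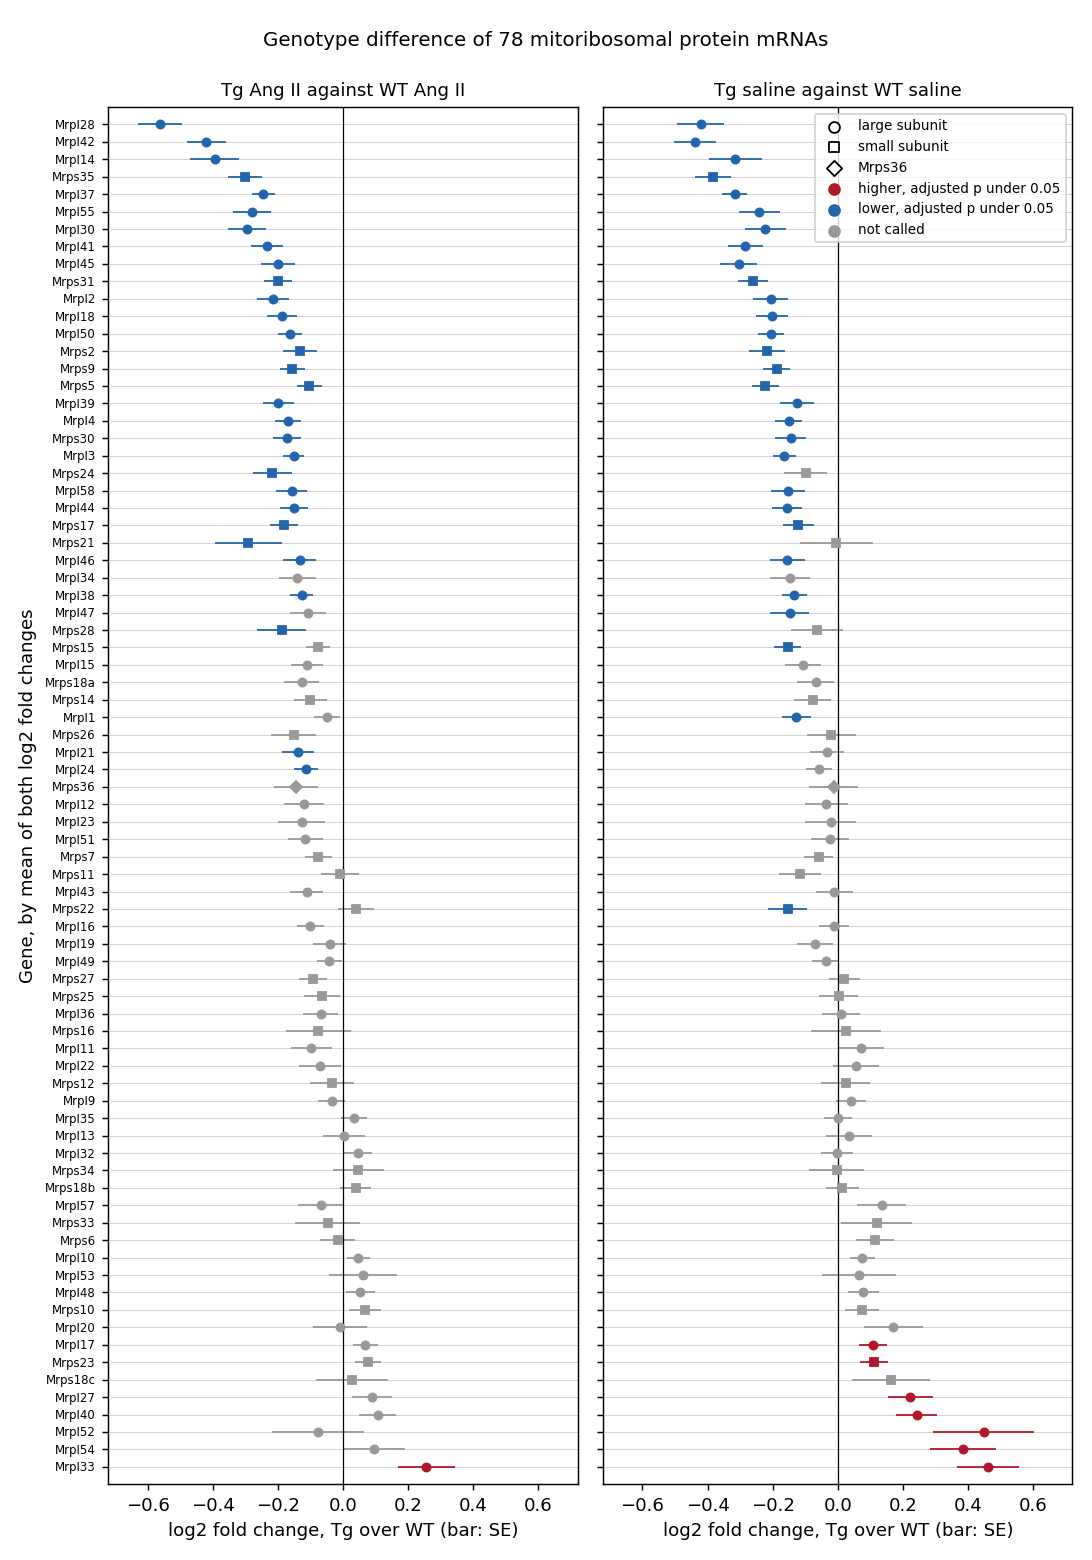
Log2 fold change of Tg over WT with SE (x axis) for each of the 78 genes (rows) under Ang II and under saline, with calls at an adjusted p under 0.05 in colour. Mrpl28 (-0.56 under Ang II) and Mrpl42 (-0.44 under saline) lie at the low end and Mrpl33 (0.26 under Ang II and 0.46 under saline) at the high end.

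The calls spread over both subunits. For comparison, 20.2% of all tested genes fell and 20.4% rose under saline, and 16.4% did in each direction under angiotensin II. In Tg saline against WT saline hearts, 21 of 51 large subunit members fell and 6 rose (median log2 fold change -0.0576), and 8 of 26 small subunit members fell and 1 rose (median -0.0401). Under angiotensin II, 21 of 51 large subunit members fell and 1 rose (median -0.114), and 9 of 26 small subunit members fell and none rose (median -0.0768). By descent, 14 of 45 members with a bacterial counterpart (median -0.0576) and 14 of 29 specific to mitochondria (median -0.037) fell under saline, and 16 and 13 under angiotensin II. By mRNA length under saline, 12 fell and 1 rose of the 26 members with the longest mRNAs (median -0.0927). Of the 26 with the shortest, 6 fell and 4 rose (median -0.00464), and that lower count lay close to the share of all genes. Without library 965, the saline medians were -0.0862 for the large subunit, -0.0937 for the small subunit, -0.109 for the longest and -0.0568 for the shortest mRNAs, and the contrast by length was smaller. Without it, 12 of the longest fell and none rose, and 6 of the shortest fell and 3 rose. Of all genes, 19.4% fell and 18.8% rose there. Under angiotensin II, 10 of the longest fell and none rose, and 8 of the shortest fell and 1 rose. These splits are descriptions, and the differences between classes were not tested. Of the 22 members with a promoter that fell in both comparisons, 3 (13.6%) held the ETS motif, 6 (27.3%) the NRF1 motif and 2 (9.09%) the YY1 motif; of the other 47, 23 (48.9%), 7 (14.9%) and 10 (21.3%) did.

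The human counterparts of 4 members are tied to inherited cardiomyopathy. Mrpl3, of the large subunit, had a lowest, median and highest level of 6.989, 8.121 and 8.891 scaled FPKM in Tg saline hearts, against 8.331, 9.016 and 10.16 scaled FPKM in WT saline hearts. It fell by 0.16 on the log2 scale under saline (adjusted p = 0.000264) and by 0.15 under angiotensin II (adjusted p = 0.000349), with 8 Tg libraries below every WT library in each case. Mrpl44, a large subunit protein with an RNase III-like fold, likewise fell by 0.16 (adjusted p = 0.00563) and by 0.15 (adjusted p = 0.00549). Mrps22, of the small subunit, fell by 0.15 under saline (adjusted p = 0.0353), was at 0.04 under angiotensin II (adjusted p = 0.617), and missed the threshold under saline without library 965. Mrps14, of the small subunit, was at -0.08 (adjusted p = 0.274) and -0.10 (adjusted p = 0.133).

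Members with special roles differed in their calls. Mrpl58, a peptidyl-tRNA hydrolase built into the large subunit, fell by 0.15 under saline (adjusted p = 0.0157) and by 0.16 under angiotensin II (adjusted p = 0.00918). Mrps30 fell by 0.14 (adjusted p = 0.0139) and by 0.17 (adjusted p = 0.00213), and Mrpl18 by 0.20 (adjusted p = 0.00114) and by 0.19 (adjusted p = 0.00142). Mrpl12 of the stalk was at -0.04 (adjusted p = 0.7) and -0.12 (adjusted p = 0.128), and Mrps12 of the decoding centre at 0.02 (adjusted p = 0.83) and -0.03 (adjusted p = 0.747). Mrps18a was at -0.07 (adjusted p = 0.356) and -0.13 (adjusted p = 0.0594), and Mrps36 at -0.01 (adjusted p = 0.907) and -0.14 (adjusted p = 0.0988). Without library 965, the values of Mrps18a (-0.13, adjusted p = 0.0389) and Mrps36 (-0.14, adjusted p = 0.0189) under angiotensin II passed. Some members share exon bases with a neighbour, most of all Mrpl53 with Gm42688 on the same strand (88.0% of its exon bases). Mrps25 shares 69.8% with Nr2c2 and Mrps34 63.4% with Mapk8ip3, both on the opposite strand. Smaller shares are those of Mrpl14 with Tmem63b on the opposite strand (11.2%), Mrpl18 with Tcp1 (10.1%) and Mrpl12 with Gm16755 (13.1%). The strand setting of the counting is not given in the sources used here, so reads in these stretches cannot be told apart; 33 of the 78 share any exon bases and 18 share over 10%.

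The direction of the members depends on how libraries are scaled. The main scaling sets the typical gene to no change. With library size alone, all tested genes shifted up by a median of 0.137 on the log2 scale in Tg saline against WT saline hearts and by 0.0789 in Tg Ang II against WT Ang II hearts. The members then had medians of 0.0857 and -0.0197, below these shifts. Under library size alone, 8 members fell and 21 rose under saline, against 7.9% and 41.9% of all genes, and 11 fell and 11 rose under angiotensin II, against 7.97% and 29.0%. The 8 that fell under saline on both scalings were Mrpl14, Mrpl28, Mrpl37, Mrpl41, Mrpl42, Mrpl45, Mrps31 and Mrps35. The 7 that rose under saline also rose with library size alone. Members called lower are therefore lower relative to the typical gene of the same library, and most of them did not pass the test as a share of all reads.

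**Figure D5:**
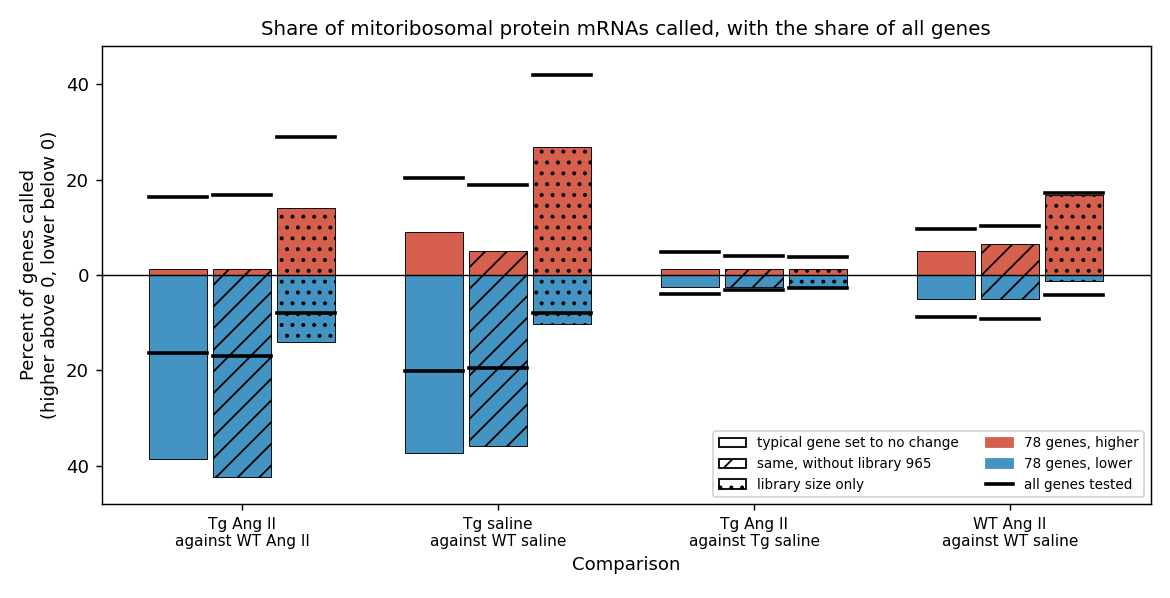
Percent of the 78 genes called higher (above 0) and lower (below 0) in each comparison (x axis), under the main scaling, without library 965 and with library size only, with lines for all tested genes. In Tg against WT the lower share of the 78 (38.5% under Ang II and 37.2% under saline) exceeds that of all genes (16.4% and 20.2%), and with library size only the higher share (26.9% under saline) stays below that of all genes (41.9%).

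Fits of each sex alone differed in their counts. In females, 26 members (33.3%) fell and 2 rose in Tg saline against WT saline hearts (median -0.152), against 13.5% and 13.3% of all genes. Among females given angiotensin II, 13 fell and 2 rose, against 9.23% and 9.53%. In males alone, 7 (8.97%) fell and 3 rose under saline (median -0.00147), against 8.62% and 9.95% of all genes, so the lower share was close to the background. Without library 965, a male, 10 (12.8%) fell and 1 rose (median -0.0608), against 6.79% and 7.67%. Among males given angiotensin II, 18 fell and none rose (median -0.127), against 8.01% and 9.32%. Testing the difference between the sexes itself called none of the 78 in any of the 4 comparisons of genotype or treatment by edgeR; the smallest adjusted p in the 4 was 0.53. For the genotype difference under saline, 12 of the 78 (15.4%) had an unadjusted p under 0.05, against 5.54% of all tested genes, and under angiotensin II 3 (3.85%), against 8.29%. For the response to angiotensin II, 11 (14.1%) did in Tg hearts, against 7.86%, and 6 (7.69%) in WT hearts, against 6.46%. This test between the sexes was run on all 50 libraries only. Library 965, a Tg saline male, thus enters the shares of 15.4% and 14.1%, and its part in them was not tested.

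Angiotensin II moved few members. In WT Ang II against WT saline hearts, 4 members rose and 4 fell, against 9.71% of all tested genes higher and 8.87% lower. That is 5.13% of the members in each direction, below the background. Without library 965, 5 rose and 4 fell, against 10.3% and 9.25%, and with library size alone 13 rose and 1 fell, against 17.1% and 4.1%. In females alone none rose and 1 fell, against 3.34% and 2.38%, and in males alone 1 rose and none fell, against 2.89% and 2.18%. Mrps23 had a lowest, median and highest level of 55.59, 65.95 and 76.84 scaled FPKM in WT Ang II hearts, against 51.98, 55.37 and 62.91 scaled FPKM in WT saline hearts. The groups overlapped, with 8 of 14 WT Ang II libraries above every WT saline library, and the log2 fold change was 0.22 ± 0.04 (SE; edgeR adjusted p = 0.000187). Mrpl57 rose by 0.25 on the log2 scale (adjusted p = 0.0125), Mrpl33 by 0.30 (adjusted p = 0.0192) and Mrpl54 by 0.30 (adjusted p = 0.0247). Without libraries 329 and 847, Mrpl33 (0.24, adjusted p = 0.0539) and Mrpl54 (0.27, adjusted p = 0.0594) missed the threshold, and 2 members rose and 3 fell, against 7.82% and 7.37% of all genes.

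The 4 that fell in WT Ang II hearts were Mrps5 (log2 fold change -0.15, adjusted p = 0.00589), Mrpl39 (-0.18, adjusted p = 0.00969), Mrpl14 (-0.24, adjusted p = 0.0284) and Mrps31 (-0.13, adjusted p = 0.0393). Mrpl39, a large subunit protein specific to mitochondria, had 13.11, 15.96 and 18.22 scaled FPKM in WT Ang II hearts, against 16.12, 17.75 and 20.98 scaled FPKM in WT saline hearts. Its groups overlapped, with 8 of 14 WT Ang II libraries below every WT saline library. Mrpl14 and Mrps31 missed the threshold when single libraries were left out: without the WT Ang II male of replicate 1, the WT Ang II female of replicate 7 or the WT saline female of replicate 5, 2 members fell.

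Angiotensin II in transgenic mice gave 1 member that rose and 2 that fell (Tg Ang II against Tg saline), against 4.88% and 4.04% of all tested genes. The counts were the same without library 965, against 3.94% and 3.16%, with library size alone, against 3.79% and 2.67%, and in males alone, against 2.7% and 1.74%. In females alone no member passed, against 0.0258% of all genes in each direction. Mrps23 had 60.12, 68.84 and 77.78 scaled FPKM in Tg Ang II hearts, against 54.72, 60.26 and 65.21 scaled FPKM in Tg saline hearts, and rose by 0.19 on the log2 scale (adjusted p = 0.00286). Mrpl39 had 11.91, 14.1 and 16.14 scaled FPKM in Tg Ang II hearts, against 14.11, 16.58 and 18.43 scaled FPKM in Tg saline hearts, and fell by 0.25 (adjusted p = 0.00089). In both cases the groups overlapped. Mrpl14 fell by 0.31 (adjusted p = 0.00795), and by 0.23 without library 965 (adjusted p = 0.0238). All 3 were also among the calls in WT hearts, in the same direction, in libraries that the comparison does not share. The share of all genes called in both was not counted.

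The difference between the Ang II responses of Tg and WT hearts was tested directly. It called none of the 78 members, and 4 had an unadjusted p under 0.05; DESeq2 and limma also called none. The smallest adjusted p was 0.419, for Mrpl52. Among all tested genes, 0.0086% were higher and 0.0344% lower. The median over the members was -0.0328, and -0.00491 without library 965, where 0.0172% of all genes were lower and none of the members passed. With library size alone, 0.0688% of all genes were lower and again none of the members.

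The other parts of the mitochondrial translation machinery were followed through lists of genes. For comparison, 20.2% of all tested genes fell and 20.4% rose under saline, and 16.4% did in each direction under angiotensin II. Among 5 mitoribosomal proteins named otherwise, 2 fell and none rose in each genotype comparison; with library size alone none fell and 1 rose under saline (median 0.00528), and none passed under angiotensin II (median -0.00831). Dap3, a small subunit GTPase, fell by 0.17 under saline (adjusted p = 0.000196) and by 0.12 under angiotensin II (adjusted p = 0.00353). Ptcd3, also of the small subunit, fell by 0.17 under saline (adjusted p = 4.31e-05). Of 24 tested genes for ribosome assembly and rRNA modification, 10 fell and 1 rose under saline (median -0.102), and 6 fell and 1 rose under angiotensin II (median -0.054). Mettl17, needed for assembly of the small subunit, had the smallest adjusted p in both, with a fall of 0.34 under saline (adjusted p = 1.42e-05) and of 0.25 under angiotensin II (adjusted p = 0.0006). Rpusd3, a pseudouridine synthase family member, fell further under angiotensin II, by 0.39 (adjusted p = 0.00113). With library size alone the assembly counts turned, to 1 lower and 3 higher under saline and 2 lower and 3 higher under angiotensin II. Of all genes, 7.9% fell and 41.9% rose under saline on that scale, and 7.97% and 29.0% under angiotensin II.

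Of 15 mitochondrial translation factors, 7 fell (46.7%) and none rose under saline (median -0.139), against 20.2% of all genes lower. Under angiotensin II, 5 fell (33.3%) and none rose (median -0.0944), against 16.4%. With library size alone 2 and 1 fell and none rose. Tufm, the elongation factor that brings charged tRNA to the ribosome, had median levels of 48.78 scaled FPKM in Tg Ang II and 50.44 in Tg saline hearts, against 63.32 in WT Ang II and 63.11 in WT saline hearts. It fell by 0.34 on the log2 scale in both comparisons (adjusted p = 1.78e-07 under saline and 7.33e-08 under angiotensin II). Of 19 tested aminoacyl-tRNA synthetases and related enzymes, 7 fell (36.8%) and 1 rose under saline. Under angiotensin II, 4 fell (21.1%, against 16.4% of all genes) and none rose. Cars2, which charges mitochondrial tRNA with cysteine, fell by 0.35 under saline (adjusted p = 9.27e-08) and by 0.42 under angiotensin II (adjusted p = 9.19e-10).

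Of 16 tested genes for mitochondrial DNA upkeep and transcription, 7 fell (43.8%) and 1 rose under saline, against 20.2% of all genes lower. Under angiotensin II, 6 fell (37.5%) and 1 rose, against 16.4% of all genes lower. Hsd17b10, a subunit of mitochondrial RNase P, fell by 0.38 (adjusted p = 4.95e-06) and by 0.41 (adjusted p = 5.56e-07), and Elac2, which trims the other end of mitochondrial tRNAs, rose by 0.22 (adjusted p = 0.000149) and by 0.18 (adjusted p = 0.00124). Of 10 tested regulators, Myc, a general growth regulator, rose by 1.13 under saline (adjusted p = 7.75e-08) and by 1.08 under angiotensin II (adjusted p = 3.57e-08). Gabpb1, the partner of the ETS factor Gabpa, fell by 0.27 (adjusted p = 0.003) and by 0.17 (adjusted p = 0.0424). Gabpa itself fell by 0.15 under saline (edgeR adjusted p = 0.00531). With library size alone, none of the 10 regulators fell and 2 rose in each of these comparisons. With library size alone, the list medians for assembly, translation factors, synthetases and DNA upkeep lay between -0.00706 and 0.0516 in both comparisons. On that scale 4 synthetases fell and 2 rose under saline and 3 fell and 1 rose under angiotensin II, and for DNA upkeep 3 fell and 2 rose and 2 fell and 1 rose. Of all genes, 7.9% fell and 41.9% rose there under saline, and 7.97% and 29.0% under angiotensin II.

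The RNAs made in mitochondria were lower in Tg hearts as well. Of the 13 protein genes of the mitochondrial genome, 11 fell under saline (84.6%, median -0.259) and 7 under angiotensin II (53.8%, median -0.189), and none rose. The lower shares of all genes were 20.2% and 16.4%. Both ribosomal RNAs fell in both comparisons. The small rRNA, mt-Rnr1, had median levels of 1167 scaled FPKM in Tg Ang II and 1180 in Tg saline hearts, against 1840 in WT Ang II and 1754 in WT saline hearts, a fall of 0.57 under saline (adjusted p = 1.29e-05) and of 0.58 under angiotensin II (adjusted p = 5.41e-06). The large rRNA, mt-Rnr2, fell by 0.45 under saline (adjusted p = 0.000433) and by 0.39 under angiotensin II (adjusted p = 0.00105). Selection for poly(A) captures these RNAs only as far as they are adenylated. With library size alone, both rRNAs still fell, at medians of -0.375 and -0.395. Of the 13 protein genes, 9 fell under saline (median -0.126) and 5 under angiotensin II (median -0.093). On that scale 7.9% and 7.97% of all genes fell.

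The cytosolic ribosomal proteins, the closest comparison in function, had more members higher than lower under saline, and the number depended on library 965. Of 87 tested, 3 fell (3.45%) and 35 rose (40.2%) in Tg saline against WT saline hearts (median 0.215), against the 20.2% and 20.4% of all genes. Without library 965, 3 fell and 14 rose (16.1%; median 0.106), and the higher share was then below the 18.8% of all genes. With library size alone 76 rose and 3 fell under saline (median 0.349), against 41.9% of all genes higher. Under angiotensin II, 4 fell (4.6%) and 1 rose (1.15%), with a median of -0.0468, against 16.4% of all genes in each direction. With library size alone 2 fell and 3 rose there (median 0.0392), against 7.97% and 29.0% of all genes. The difference between the lists was not tested.

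Markers of cell types moved with genotype too. Their counts come from the main scaling with all 50 libraries and were not made with library size alone or without library 965. Of all tested genes, 20.2% fell and 20.4% rose under saline, and 16.4% in each direction under angiotensin II. Of 10 cardiomyocyte markers, 6 fell and 1 rose under saline (median -0.186), and 7 fell and none rose under angiotensin II (median -0.185). Their summed level ranged over 12190 to 15700 scaled FPKM in Tg Ang II, 12570 to 17490 in Tg saline, 14170 to 17730 in WT Ang II and 15390 to 17110 in WT saline hearts, and library 965 had 17490. All 7 fibroblast and all 6 macrophage markers rose under saline, and 4 of each under angiotensin II. All 6 endothelial markers fell in both comparisons, and 5 of 5 and 4 of 5 mural markers fell. The summed fibroblast markers ranged over 304.0 to 601.8 scaled FPKM in Tg Ang II, 464.6 to 704.4 in Tg saline, 285.7 to 449.7 in WT Ang II and 368.6 to 486.7 in WT saline hearts. None of the 5 red blood cell markers passed, and the 3 atrial and 3 adipocyte markers were at or below a summed 1.166 and 0.6349 scaled FPKM in every library. No marker was at 0 in every library. In this bulk tissue, fewer cardiomyocytes and less RNA per cardiomyocyte cannot be told apart, and the part of the cell makeup in the lower mitoribosomal mRNAs was not tested.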

How the data were processed

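Poly(A) RNA of mouse left ventricle was sequenced as paired reads from dUTP libraries, per the labels' protocols. The authors deposited 1 table with a read count and an FPKM value per gene and library; per the submitters' processing notes, cutadapt 1.9, FastQC, HISAT2 2.0.4 and StringTie 1.3.4d were used. The counting tool, its strand setting and the genome build are not given in the sources used here. Gene positions of 69 of the 78 members equal those of GENCODE M21 (GRCm38), and the deposited FPKM fit a gene length of all exon bases (median ratio 1.07).

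Counts were tested with edgeR 4.0.16 (R 4.3.3; quasi-likelihood test, two-sided) over the 11628 genes with at least 1 FPKM in 5 or more libraries, all 50 libraries in 1 fit. The model had 1 mean for each of 8 groups of genotype, treatment and sex, the sexes weighted equally, with median-of-ratios scaling and Benjamini-Hochberg adjustment over all genes; a call is an adjusted p under 0.05. The method was tested on simulated data. For levels, each library's deposited FPKM were divided by 1 factor, found by the median of ratios. Fold changes are Tg over WT or Ang II over saline.

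Named members were the called ones with the smallest adjusted p (up to 6 per direction) or the largest fold change (up to 3 per direction) in each comparison, 10 chosen for their roles, and the 3 with the highest and the 3 with the lowest mean level; some others were named after their values were seen. Members, gene lists and marker lists were chosen with earlier results of these data known. Promoter sequences come from RefSeq (GRCm38.p6). DESeq2 1.42.0, limma 3.58.1 and other scalings, filters and library sets served as alternatives.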

Additional observations from a re-analysis of the deposited data

Results flagged for a closer look

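A library was set apart where its gap to the nearest other library of its group of genotype, treatment and sex was large against the group's range (Dixon's test); 22 of 248 such group tests, over 30 named members and the mean of all members, met this, and chance alone gives about 1 in 20. Library 965, a Tg saline male, accounted for 10 of them. Its mean deviation of the 78 members was 0.327, against a highest of 0.0595 in the other Tg saline libraries. Its levels that stood apart, in scaled FPKM, were 27.4 for Mrpl14, 3.99 for Mrpl17, 19.5 for Mrpl27, 38.6 for Mrpl28, 5.69 for Mrpl33, 12.1 for Mrpl52, 24.6 for Mrpl54, 15.4 for Mrps12 and 28.9 for Mrps36.

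Library 329, labelled WT Ang II male, stood high for Mrpl52 at 5.23 scaled FPKM and for Mrps10 at 2.06 scaled FPKM. Library 328, a WT Ang II male, had 8.24 scaled FPKM of Mrpl58, the highest of its group. Among WT saline females, library 239 was high for Mrpl30 at 24.96 scaled FPKM and for Mrpl54 at 12.4 scaled FPKM, library 968 was high for Mrps22 at 4.89 scaled FPKM, and library 718 stood apart for Mrpl44 at 15.2 scaled FPKM. Among Tg Ang II females, library 783 was low for Mrps10 at 1.48 scaled FPKM and library 489 low for Mrps22 at 2.83 scaled FPKM. For Mrps31, library 722 (WT Ang II female) had 9.1 scaled FPKM and library 159 (WT Ang II male) 6.46 scaled FPKM. Library 232, a WT saline male, had 5.76 scaled FPKM of Mrps35.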

How the results depend on the processing

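Under DESeq2, TMM scaling and the filter of 1 FPKM in 25 libraries, all 30 results on single named members kept their direction and their call; without library 965, 28 of 30 did, and with library size only, 27 of 30. It was 29 with either length trend removed, 27 without libraries 329 and 847 (with or without library 965), 26 with limma, 26 without a filter, 25 with clusters of library numbers as a covariate, 15 in females, 17 in males and 15 in males without library 965; the others kept their direction and missed the threshold. The median of the members in Tg saline against WT saline was 0.0857 with library size only and 0.0517 with limma on log2(FPKM + 1), where no typical gene is set to no change, and -0.152 in females; its sign thus depends on the scaling. Shares of all genes in these fits follow in brackets, lower or higher as the count, where the fit is not described above. The number that fell in that comparison was 8 with library size only, 9 with limma (8.69%), 7 in males and 10 in males without library 965. The number that rose there was 21 with library size only, 15 with limma (34.3%), 4 without library 965, 4 without libraries 965, 329 and 847 (19.0%), 4 with clusters of library numbers as a covariate (17.0%), 2 in females, 3 in males and 1 in males without library 965.

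In Tg Ang II against WT Ang II, 11 fell with library size only, 11 with limma (7.58%), 13 in females and 18 in males. There, 11 rose with library size only, 9 with limma (27.7%), 5 with the trend on mRNA length removed (17.0%), 3 with the trend on exon length removed (16.7%), 2 in females, 2 without libraries 329 and 847, 2 without all 3 doubted libraries (17.0%), and 0 in males, in males without library 965 and without a filter on low values (5.87%).

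In WT Ang II against WT saline, 13 rose with library size only, 15 with limma (15.5%), 2 without libraries 329 and 847, 0 in females, 1 in males and 2 in males without library 965. There, 1 fell with library size only, 0 with limma (3.37%), 2 without a filter (2.46%), 7 with the trend on exon length removed (8.89%), 10 with the trend on mRNA length removed (9.24%), 2 with the clusters as a covariate (8.16%), 1 in females and 0 in males with or without library 965. In Tg Ang II against Tg saline, 0 rose in females and in males without library 965 and 2 with the mRNA length trend removed; 0 fell in females, 1 in males without library 965 and 1 with the clusters as a covariate (2.35%). The median difference of the Ang II responses was -0.142 in males. The cause of these shifts was not tested; single-sex fits hold fewer libraries.

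Leaving out each of the 50 libraries in turn gave 25 to 30 lower and 4 to 8 higher in Tg saline against WT saline (median -0.0894 to -0.0325) and 26 to 34 lower and 1 to 2 higher in Tg Ang II against WT Ang II (median -0.118 to -0.0935). It gave 2 to 5 lower and 2 to 6 higher in WT Ang II against WT saline, 2 to 3 lower and 1 higher in Tg Ang II against Tg saline, and 0 for the difference of the responses. The counts of 4 and of 2 higher rested on leaving out library 965 and library 329. Removal of the mRNA length trend and the fit of males without library 965 were chosen after seeing the data. No paired analysis was possible because every library number occurs once, so the groups share no replicate number.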
